A study of Arabidopsis thaliana with 12 samples.

Results

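Seedlings of wild type (WT) Arabidopsis thaliana, accession Col-0, were compared after 96 h at a low water potential and after 96 h on control medium. Water potential, in megapascals (MPa), measures how freely water is available, and a more negative value means that water is held more tightly. Per the labels, seedlings were grown on agar without added sugar in continuous light, were moved at day 7, and were collected whole 96 h later. The control group went to fresh medium at -0.25 MPa, and the stress group went to plates at -0.7 MPa, where the agar held a polyethylene glycol of high molecular weight that lowers the water potential of the medium. The comparison takes the 3 WT control and the 3 WT stress libraries of the 12 in the series, chosen by genotype and treatment label. The other 6 libraries are of 1 stable 35S:HIN1 line (HIN1) at the same water potentials, and entered only the estimate of the spread between libraries and a test of the difference between genotypes. Each library is polyA RNA of a separate experiment, and per the design text the WT libraries also serve another series. The values are read counts per gene, given as counts per M reads (CPM) of a library size scaled by edgeR's TMM factors.

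As background, falling water potential raises the hormone abscisic acid (ABA), which blocks clade A phosphatases through its receptors and thereby frees SnRK2 kinases. These kinases activate bZIP factors of the ABF group, which bind ABA-responsive elements with an ACGTG core, while DREB and CBF factors bind dehydration-responsive elements with the core CCGAC. Seedlings at low water potential accumulate proline, sugars and late embryogenesis abundant (LEA) proteins, which protect proteins and membranes or lower the osmotic potential of the cell, and they grow more slowly.

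The WT libraries held 58.00 M to 68.56 M reads in genes. Correlations of log2 CPM across genes were 0.9837 to 0.9892 within a treatment and 0.9537 to 0.9683 between treatments. The first principal component (62.8% of the variance) separated the treatments. WT control library 1 stood apart on the second (11.5%), scoring 39.8 where the other control libraries scored -23.5 and -23.3, and the genes named further on that this touches are given with and without it. Chloroplast genes took 0.165% to 0.589% of reads and were highest in library 3 of each treatment. All markers of shoot, root, root hair, guard cell, phloem and xylem, trichome and meristem that were tested had reads.

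Of 22924 genes tested, 7239 (31.6%) passed an adjusted p of 0.05 in the quasi-likelihood test of edgeR, adjusted by Benjamini-Hochberg, which is the test behind every adjusted p below. Levels were higher under stress in 3416 of them (14.9% of genes tested) and lower in 3823 (16.7%). Many changes were small. Under 1.5-fold lay 2117 of the genes that rose and 1939 of those that fell. At least 2-fold changes were called in 1758 genes (7.67%), 679 higher (2.96%) and 1079 lower (4.71%), and at least 16-fold changes in 71 higher and 48 lower genes. The median log2 fold change over all genes was 0.00, and it lay between -0.005 and 0.016 under every other scaling, filter and left-out library tried. Each scaling takes most genes as unchanged, so a median near 0 is built in. A shift common to all genes could not be seen. The genes that rose took 11.6% of reads in control and 16.1% in stress, and the genes that fell took 26.7% and 18.4%. In 9872 genes (43.1%) the libraries of the groups did not overlap, and 6964 of the called genes were among these.

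**Figure D1:**
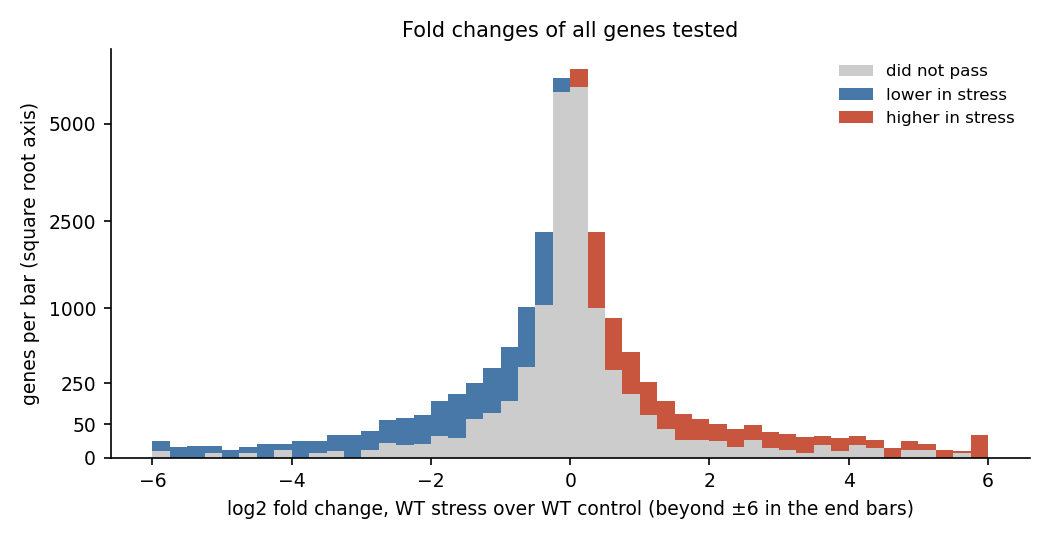
Number of genes (vertical axis, square-root scale) in each 0.25-wide step of the log2 fold change of stress over control in WT (horizontal axis), for genes called higher, called lower and not called. Values beyond the ends are drawn in the outermost bars. The bars of called genes overlap the uncalled ones near 0, and the lower side holds more genes past 2-fold (1079 against 679).

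The promoters of 4 known dehydration genes are shown because they carry different sets of the elements named above and their genes rose by very different amounts. Each is the 250 bases before the annotated gene start, 5' to 3' on the gene's strand, from the RefSeq genome TAIR10.1. Capitals mark matches on either strand to the dehydration-responsive element (ACCGAC or GCCGAC) and to the ABA-responsive element (ACGTGNC). COR15A, on the minus strand of chromosome 2 (chr2:17712331-17712580), encodes a small chloroplast protein that protects membranes. RD29A (chr5:21240467-21240716) and RD29B (chr5:21236771-21237020) are neighbours on the plus strand of chromosome 5 and encode hydrophilic proteins used as reporters of osmotic stress and of ABA. LTI30, on the plus strand of chromosome 3 (chr3:18940393-18940642), encodes a dehydrin.
COR15A: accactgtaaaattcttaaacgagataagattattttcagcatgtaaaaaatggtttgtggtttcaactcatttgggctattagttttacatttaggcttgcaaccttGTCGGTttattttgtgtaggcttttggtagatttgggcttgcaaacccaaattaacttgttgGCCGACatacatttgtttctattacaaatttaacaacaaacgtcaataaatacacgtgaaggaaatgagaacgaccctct
RD29A: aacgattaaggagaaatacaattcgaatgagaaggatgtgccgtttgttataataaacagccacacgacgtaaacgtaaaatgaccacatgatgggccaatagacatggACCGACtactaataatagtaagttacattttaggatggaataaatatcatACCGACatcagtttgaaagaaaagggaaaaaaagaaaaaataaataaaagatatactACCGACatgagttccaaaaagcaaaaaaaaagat
RD29B: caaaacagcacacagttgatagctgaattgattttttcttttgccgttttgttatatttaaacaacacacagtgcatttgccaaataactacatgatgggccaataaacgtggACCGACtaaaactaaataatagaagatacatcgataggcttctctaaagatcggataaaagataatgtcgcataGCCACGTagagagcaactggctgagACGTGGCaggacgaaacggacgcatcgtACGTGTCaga
LTI30: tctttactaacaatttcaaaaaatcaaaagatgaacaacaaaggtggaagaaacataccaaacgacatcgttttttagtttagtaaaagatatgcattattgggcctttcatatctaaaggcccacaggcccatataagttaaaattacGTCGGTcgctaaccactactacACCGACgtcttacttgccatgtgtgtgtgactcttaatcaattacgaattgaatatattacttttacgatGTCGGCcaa
The COR15A window holds 2 dehydration-responsive elements and no match to ACGTGNC, and RD29A and LTI30 hold 3 and none. RD29B holds 1 dehydration-responsive element and 3 matches to ACGTGNC, all 3 within 70 bases of the start. The COR15A and RD29B windows also hold an ACGTG core in lower case, which the longer pattern does not match. So the lack of a marked site in COR15A is not a lack of the core. The windows of P5CS1 and PRODH1, which encode the enzymes that start proline synthesis and proline breakdown, hold no match to either pattern.

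COR15A was at 4.55, 4.65 and 5.96 CPM in control and 69.2, 60.1 and 66.1 CPM in stress, a log2 fold change of 3.69 ± 0.187 (approximate standard error, as in all values written this way; adjusted p = 3.72e-07). RD29A stood at 13.9, 10.3 and 13.9 CPM in control and 57.9, 55.5 and 50.8 CPM in stress, a log2 fold change of 2.1 ± 0.185 (adjusted p = 1.10e-05). In both genes every stress library was several times above every control library and the stress libraries lay close together. RD29B was at 3.5, 5.08 and 5.24 CPM in control and 43.9, 56.6 and 17.8 CPM in stress (log2 fold change 3.1 ± 0.74, adjusted p = 0.00822), so its stress libraries spread over a wider range, with stress library 3 the lowest. LTI30, whose window holds as many dehydration-responsive elements as that of RD29A, was at 25.9, 18.7 and 23.5 CPM in control and 33.5, 31.3 and 24.8 CPM in stress. Its groups overlapped, since stress library 3 lay below control library 1, and its log2 fold change of 0.40 ± 0.133 (adjusted p = 0.0412) was lost without WT control library 2 (0.29, adjusted p = 0.122), WT control library 3 (0.42, 0.0598), WT stress library 1 (0.30, 0.157) or WT stress library 2 (0.36, 0.108). With the replicate numbers as a block its adjusted p was 0.0639, and with the 6 WT libraries alone it was 0.0908.

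**Figure D2:**
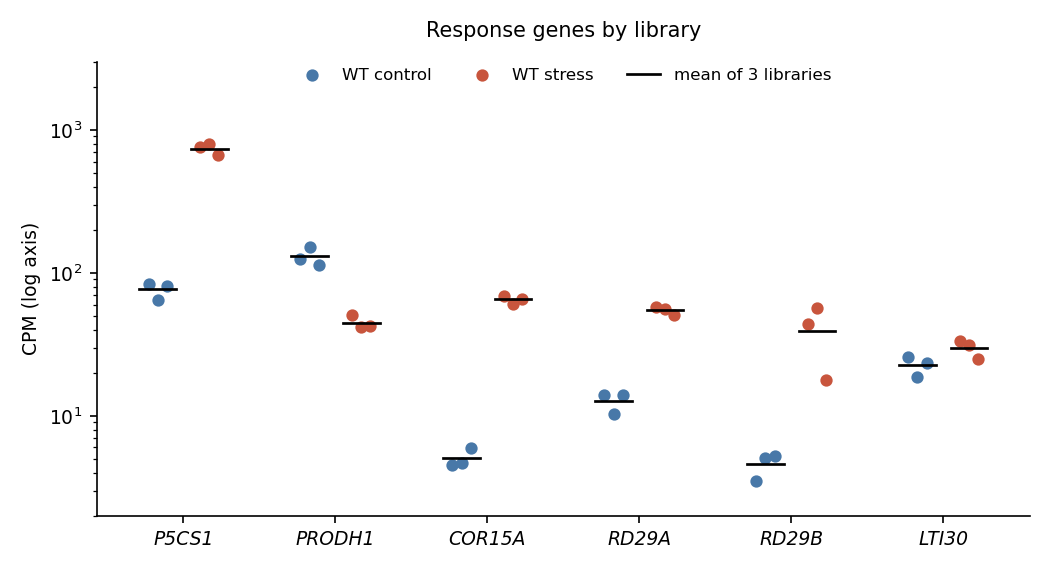
CPM on a log axis for 6 response genes in each WT control and WT stress library, with a black line at the mean of each group of 3. P5CS1, COR15A, RD29A and RD29B sit higher in every stress library than in every control library, PRODH1 sits lower, and the 2 groups of LTI30 overlap.

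Across all 22679 tested genes with a 250-base window, the share with at least 1 ABA-responsive element (ACGTGNC, either strand) went down in order from the genes that rose most to those that fell most. It was 16.4% (111 of 676) among genes that rose at least 2-fold and 11.7% among genes that rose less. It was 9.16% among genes not called, 7.98% among those that fell less than 2-fold, and 7.61% (82 of 1077) among those that fell at least 2-fold, against 9.46% over all windows. It was no higher at the largest changes, since 13.2% (36 of 272) of the genes that rose at least 4-fold held a match. The G-box (CACGTG), which shares its core with that element, was in 1647 windows, 66% of which also held ACGTGNC. Its share ran from 14.1% in genes that rose at least 2-fold to 5.76% in genes that fell at least 2-fold, against 7.26% over all windows.

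Windows were also grouped by how many ACGTGNC matches they held. With no match (20533 genes), 14.4% of genes rose and 17.1% fell. With 1 match (1636 genes) 17.9% rose and 14.7% fell, with 2 matches (410 genes) 24.4% rose and 11.7% fell, and with 3 or more (100 genes) 36% rose and 12% fell. The medians were small throughout, from a log2 fold change of -0.01 with no match to 0.14 with 3 or more, so most genes with matches changed little or not at all. The dehydration-responsive element was in 11.1% of windows of genes that rose at least 2-fold and in 6.41% of those that fell at least 2-fold, against 7.71% over all.

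Another element was less frequent at both ends of the response. The site II element (TGGGCC), common in promoters of ribosomal and other housekeeping genes, was in 15.5% of all windows and in 17.3% of those of genes not called. Among called genes that changed less than 2-fold, it was in 16.9% of those that rose and 10.3% of those that fell. A smaller share, 9.32% of genes that rose at least 2-fold and 4.46% of those that fell at least 2-fold held it. The evening element (AAAATATCT) was in 3.7% and 3.25% of these against 2.45% over all, and the telo-box (AAACCCTA) in 2.96% and 2.41% against 3.7%. The median GC content of the windows was 30.4% to 31.6% in every class. These shares describe letters in a window and have no test, and a match is not a bound site.

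**Figure D3:**
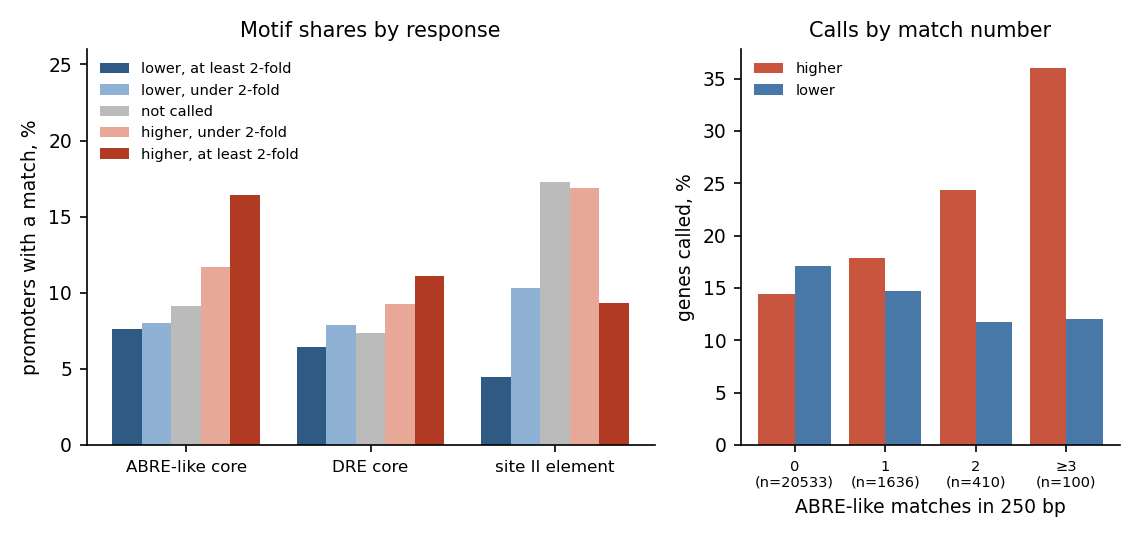
Left, share of 250-base promoter windows (percent) with each element in 5 classes of genes by response in WT. Right, percent of genes called higher and lower against the number of ACGTGNC matches in the window. The share called higher goes from 14.4% with no match to 36% with 3 or more.

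Gene lists drawn by pathway held 884 entries found in the reference names, of which 856 passed the filter on low counts and were tested. Counts of members are read against the 14.9% of all tested genes that rose and the 16.7% that fell, and medians against the median of 0.00 over all genes. The members named are of low adjusted p or were chosen after their values were seen, and those that share over 10% of their length with another annotated gene are marked, since reads of the 2 genes may not have been separated. In bulk samples, fewer cells of a type and less RNA per cell cannot be told apart.

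**Figure D4:**
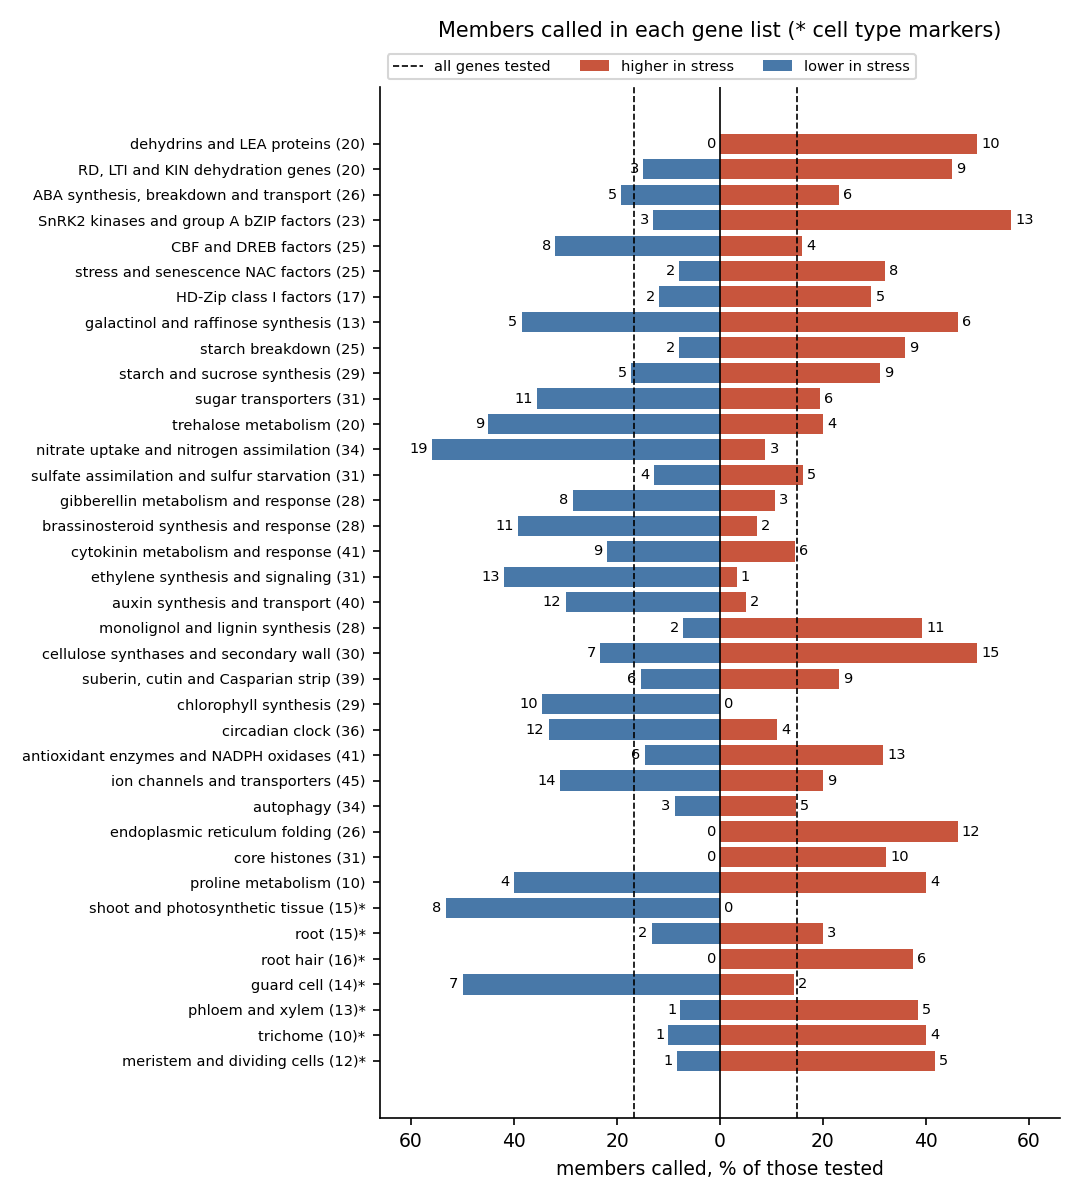
Percent of tested members called higher and lower under stress in WT for each gene list, with the number of members beside each bar. Dashed lines mark the 14.9% and 16.7% of all tested genes. Dehydrins and LEA proteins hold 10 of 20 higher and none lower, while nitrogen assimilation holds 19 of 34 lower.

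Both directions of proline metabolism moved in several steps. Of 10 genes, 4 rose and 4 fell. P5CS1, the rate-limiting enzyme of proline synthesis, was at 84.2, 64.3 and 81.2 CPM in control and 758, 799 and 667 CPM in stress (log2 fold change 3.28 ± 0.199, adjusted p = 9.34e-07). PRODH1, which starts proline breakdown in mitochondria, was at 126, 153 and 114 CPM and 50.3, 41.5 and 42.3 CPM (log2 fold change -1.55 ± 0.136, adjusted p = 1.10e-05). The groups of both genes lay far apart. PRODH2, a second proline dehydrogenase, stood at 5.04, 6.59 and 6.28 CPM in control and 1.65, 2.36 and 2.22 CPM in stress and fell as much on the log2 scale (-1.52 ± 0.161, adjusted p = 4.18e-05). The next enzyme of breakdown went the other way. P5CDH was at 75.4, 82.8 and 87.3 CPM in control and 139, 129 and 142 CPM in stress, with no overlap (log2 fold change 0.74 ± 0.0639, adjusted p = 1.02e-05), although 21% of its length overlaps another annotated gene. Smaller rises were called for DELTA-OAT (0.46), which makes the same intermediate from ornithine, and P5CR (0.37), the last enzyme of synthesis. The duplicate P5CS2 had a log2 fold change of 0.18 and did not pass (adjusted p = 0.0706). The transporters PROT1 (-0.21) and PROT2 (-0.29) fell slightly, and both calls were lost without WT control library 1 (adjusted p = 0.0942 and 0.087), WT control library 2 (0.0826 and 0.0675) or WT stress library 2 (0.053 and 0.0744), which left 2 members lower. That of PROT1 was also lost without WT stress library 1 (0.122).

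Dehydrins and LEA proteins rose in 10 of 20 genes, with a median log2 fold change of 0.58, and fell in none, or in 1 without WT control library 2 or WT stress library 2. RAB18, an ABA-responsive dehydrin, was at 8.02, 10.4 and 12.1 CPM in control and 100.3, 85.6 and 50.9 CPM in stress (log2 fold change 2.95 ± 0.467, adjusted p = 0.000665). LEA7, a LEA protein with 16.4% of its length in another gene, stood at 3.05, 3.34 and 3.5 CPM and 27.1, 33.1 and 19.5 CPM (3.01 ± 0.451, adjusted p = 0.000465). LEA4-5, of the LEA4 group, went from 0.931, 0.982 and 0.871 CPM to 10.9, 11.8 and 5.92 CPM (3.36 ± 0.517, adjusted p = 0.000555). In these 3 genes, as in RD29B, stress library 3 was the lowest of the stress libraries but still well above control. EM1, a LEA protein of maturing seeds, rose from near 0 (0.0947, 0.12 and 0.0986 CPM) to 0.469, 1.31 and 0.722 CPM (log2 fold change 2.97 ± 0.569, adjusted p = 0.00232), a level that is still very low. COR15B, the neighbour of COR15A, had a log2 fold change of 2.74, with 25.4% of its length shared with another annotated gene. The abundant members moved less. COR413-PM1, a plasma membrane protein, stood at 144, 135 and 168 CPM in control and 239, 221 and 225 CPM in stress (0.62 ± 0.13, adjusted p = 0.00406). The dehydrins COR47 (-0.34), ERD10 (0.20) and ERD14 (0.23) did not pass.

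Of 20 genes first named for dehydration or cold, 9 rose and 3 fell. KIN1, a small hydrophilic protein, was at 3.35, 1.72 and 1.89 CPM in control and 19.4, 25.9 and 15 CPM in stress (log2 fold change 3.11 ± 0.301, adjusted p = 2.26e-05). RD20, a calcium-binding protein of lipid bodies, rose by 3.38 on the log2 scale (adjusted p = 9.34e-07). KIN2, the neighbour of KIN1, was at 58.4, 41.8 and 54 CPM and 137, 124 and 102 CPM (1.23 ± 0.184, adjusted p = 0.000454). The groups of KIN1 and KIN2 did not overlap. The 3 genes that fell belong to the early-responsive-to-dehydration set, identified in plants dried for a short time. Of that set ERD9 rose (0.50), and ERD1, ERD2, ERD7 and ERD13 did not pass. ERD6, a sugar transporter, was at 177, 130.5 and 126 CPM in control and 39.8, 47.2 and 50.2 CPM in stress (-1.66 ± 0.153, adjusted p = 1.54e-05). ERD4, a membrane protein, was at 287, 271 and 249.9 CPM and 191, 187 and 199 CPM (-0.49 ± 0.0829, adjusted p = 0.00107). The third, ERD15 (-0.61, adjusted p = 0.0179), was lost without WT control library 1 (-0.41, 0.0841), WT stress library 1 (-0.58, 0.064) or WT stress library 3 (-0.57, 0.0574).

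Of 26 tested genes of ABA synthesis, breakdown and transport, 6 rose and 5 fell, with 8 lower without WT control library 3. BGLU18, which releases ABA from its stored glucose ester in the endoplasmic reticulum, was the largest gain in reads of any called gene whose groups did not overlap, from 187, 323 and 189.8 CPM to 2017, 1122 and 2211 CPM (log2 fold change 2.94 ± 0.392, adjusted p = 0.000209). The last steps of synthesis rose slightly, with log2 fold changes of 0.26 for ABA2, 0.28 for ABA3 and 0.29 for AAO3, where ABA2 and AAO3 share 25.3% and 14.6% of their lengths with other genes. NCED3, the step that limits synthesis, was at 6.79, 2.03 and 4.57 CPM in control and 9.7, 11.3 and 4.88 CPM in stress. Its groups overlapped and its log2 fold change of 0.95 ± 0.38 did not pass (adjusted p = 0.0779). The ABA 8'-hydroxylases, which break ABA down, parted. CYP707A3 fell from 74.2, 5.11 and 14.9 CPM to 3.29, 3.48 and 3.34 CPM, with control library 1 far above the others (-3.22 ± 0.769, adjusted p = 0.00821, and -1.56, 0.0281 without WT control library 1). CYP707A1 rose from 5.65, 5.91 and 5.64 CPM to 12.2, 10.4 and 9.3 CPM (0.89 ± 0.108, adjusted p = 0.000108) and CYP707A4 from 1.39, 1.88 and 1.15 CPM to 3.01, 3.25 and 3.18 CPM (1.1 ± 0.235, adjusted p = 0.00441). Among carriers, NPF4.6, an ABA importer, fell from 77.6, 74.2 and 67.2 CPM to 50, 58 and 55.1 CPM (-0.42 ± 0.0825, adjusted p = 0.00252), and ABCG31, an exporter, fell by 0.68 on the log2 scale.

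The SnRK2 kinases and group A bZIP factors with their partners rose in 13 of 23 genes and fell in 3. The changes in the ABF factors were small, with log2 fold changes of 0.66 for ABF2 and 0.45 for ABF1 (28.3% of it in another gene), and 0.44 for the kinase OST1. The larger changes lay in the AFP proteins, which bind ABI5 and repress ABA responses. AFP3 was at 11.3, 9.14 and 12.7 CPM in control and 35.5, 33 and 25.7 CPM in stress (1.51 ± 0.127, adjusted p = 7.95e-06), and AFP1 was at 4.5, 3.55 and 4.63 CPM and 16.4, 19.2 and 9.53 CPM (1.83 ± 0.22, adjusted p = 0.0001). AFP4 moved in the opposite direction, from 17.9, 18.7 and 15.4 CPM to 4.54, 4.08 and 2.98 CPM (-2.16 ± 0.152, adjusted p = 2.40e-06). No groups of these 3 genes overlapped. AFP2 had a log2 fold change of 0.08 and did not pass. ABI5 itself was low, at 1.94, 2.07 and 1.76 CPM in control and 4.09, 3.12 and 4.94 CPM in stress (1.07 ± 0.235, adjusted p = 0.005). GBF3, a bZIP factor that binds the G-box, rose from 22.6, 17.6 and 25.5 CPM to 50.1, 49.5 and 43.1 CPM (1.12 ± 0.111, adjusted p = 2.60e-05). Among kinases, SNRK2.7 rose (1.14 ± 0.123, adjusted p = 5.06e-05) and its close relative SNRK2.8 fell (-0.81 ± 0.126, adjusted p = 0.000622).

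Stress-related NAC factors rose in 8 of 25 genes and fell in 2. Only 1 was called lower without WT control library 1, WT stress library 1 or WT stress library 3, and 5 without WT stress library 2. NAC032 was at 13.2, 10.2 and 15.1 CPM in control and 36.5, 34.5 and 30.4 CPM in stress (1.39 ± 0.133, adjusted p = 1.96e-05). NAC103, a factor of the endoplasmic reticulum stress response, rose from 1.61, 1.77 and 1.89 CPM to 5.57, 4.57 and 5.43 CPM (1.56 ± 0.201, adjusted p = 0.000161). ATAF1, with 20.4% of its length in another gene, rose from 51.3, 38.8 and 46.9 CPM to 67.2, 70.6 and 68.5 CPM (0.59 ± 0.103, adjusted p = 0.00127). The stress libraries of each lay above all control libraries, as they did in NAC013, a factor of mitochondrial stress (0.62 ± 0.0981, adjusted p = 0.000698). RD26, an ABA-responsive factor, had a log2 fold change of 1.08 with an adjusted p of 0.0542. Of 17 class I HD-Zip factors, 5 rose and 2 fell, with 1 lower without WT control library 1, WT control library 3 or WT stress library 1. HB-7, a growth regulator induced by drought, had the largest rise (2.08 ± 0.137, adjusted p = 1.52e-06). HB6, a target of the ABA phosphatase ABI1, rose from 201, 184 and 196 CPM to 286, 242 and 250.5 CPM (0.42 ± 0.0748, adjusted p = 0.00136). HB54, another factor of the class, fell from 2.54, 2.6 and 1.36 CPM to 0.625, 0.502 and 0.224 CPM (-2.25 ± 0.371, adjusted p = 0.000866).

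The CBF and DREB factors, which bind the dehydration-responsive element, rose in 4 of 25 tested genes and fell in 8. The falls numbered 5 without WT control library 1, WT stress library 1 or WT stress library 3. DREB2A, a main factor of the osmotic response, was at 12.2, 5.75 and 9.14 CPM in control and 9.48, 9.57 and 8.98 CPM in stress, and its groups overlapped (log2 fold change 0.05 ± 0.311, adjusted p = 0.932). CBF3, known from cold, did not pass either (0.40 ± 0.41, adjusted p = 0.488). DEAR3 rose from 11.1, 10 and 10.9 CPM to 17.2, 15.8 and 16.1 CPM (0.62 ± 0.0707, adjusted p = 7.13e-05). DREB26 fell from 32.3, 16 and 12.8 CPM to 3.38, 4.66 and 4.08 CPM (-2.34 ± 0.329, adjusted p = 0.000301), with control library 1 the highest. DREB19 rose from 0.237, 0.172 and 0.0986 CPM to 1.66, 1.12 and 1.67 CPM (3.11), with 42.8% of its length shared with other annotated genes.

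Many falls rested in part on WT control library 1. Of the 1079 genes that fell at least 2-fold, 164 (15.2%) were at least 2 times as high in that library as in both other control libraries, against 9 (0.834%) for WT control library 2 and 11 (1.02%) for WT control library 3. Genes that fell were chosen for high control levels, which favors such peaks. Among the 679 genes that rose at least 2-fold, the counts for WT control libraries 1, 2 and 3 were 41 (6.04%), 44 (6.48%) and 71 (10.5%). The share over all tested genes was not counted. In 18 of the named genes and list members, singled out after their values were seen, the fold fell by over 1.5 times when that library was left out: ACS6, ACS11, BT5, CBF1, CBF2, CYP707A3, DDF1, DIC2, DTX50, ERF5, ERF6, ERF11, GOLS8, TCH4, ZAT10, ZAT12, AT1G07135 and AT4G29780. ZAT10, a zinc finger repressor, was at 168, 23.9 and 58.7 CPM in control and 7.82, 9.45 and 7.6 CPM in stress, and its log2 fold change of -3.33 ± 0.83 (adjusted p = 0.0102) became -2.30 (0.0437) without WT control library 1. ERF6, an ethylene response factor, was at 125, 11 and 36.3 CPM and 6.22, 6.31 and 6.38 CPM (-3.19 ± 0.71, adjusted p = 0.00557, and -1.90, 0.018 without that library). DIC2, a mitochondrial dicarboxylate carrier, had the lowest log2 fold change of the called genes that did not overlap and averaged at least 5 CPM in both groups. It was at 166, 11.2 and 45 CPM and 5.37, 6.52 and 4.87 CPM (-3.73 ± 0.935, adjusted p = 0.0106, and -2.32, 0.0494 without it). In all 3, control library 1 was the highest, control library 2 the lowest of the control libraries and the stress libraries lay below all of them.

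Of the 18 genes, 10 kept their call without WT control library 1 and 8 lost it. TCH4, a xyloglucan wall enzyme first found as induced by touch, was at 206, 23.3 and 49.9 CPM in control and 10.9, 12.8 and 12.9 CPM in stress (-2.94 ± 0.739, adjusted p = 0.0107, and -1.58, 0.0518 without WT control library 1). AT4G29780, annotated as a nuclease, was at 150.0, 5.73 and 28.6 CPM and 5.54, 5.73 and 5.26 CPM, so that control library 2 lay level with the stress libraries. Its log2 fold change of -3.48 ± 0.957 (adjusted p = 0.0169) was lost without WT control library 1 (-1.63, 0.115), WT stress library 1 (-3.48, 0.06), WT stress library 2 (-3.51, 0.0504) or WT stress library 3 (-3.44, 0.0564), and with the replicate block (-3.20, 0.051). AT1G07135, a glycine-rich protein, was at 177, 17.4 and 44.3 CPM and 6.76, 8.5 and 6.64 CPM. Its log2 fold change of -3.45 ± 0.912 (adjusted p = 0.0139) was lost without WT control library 1 (-2.07, 0.0703), WT stress library 1 (-3.39, 0.0545) or WT stress library 3 (-3.38, 0.0501). BT5, a BTB and TAZ domain protein, kept its fall, from 198, 63.9 and 81.1 CPM to 9.51, 15.3 and 6.74 CPM (-3.44 ± 0.526, adjusted p = 0.00053, and -2.77, 0.00117 without WT control library 1). The HIN1 control libraries 1 to 3, of the other genotype, were at 4.47, 24.8 and 6.08 CPM for DIC2, 7.73, 44.5 and 9.4 CPM for ZAT10 and 12.2, 27.7 and 18.3 CPM for TCH4, and in these genes library 2 was the highest.

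**Figure D5:**
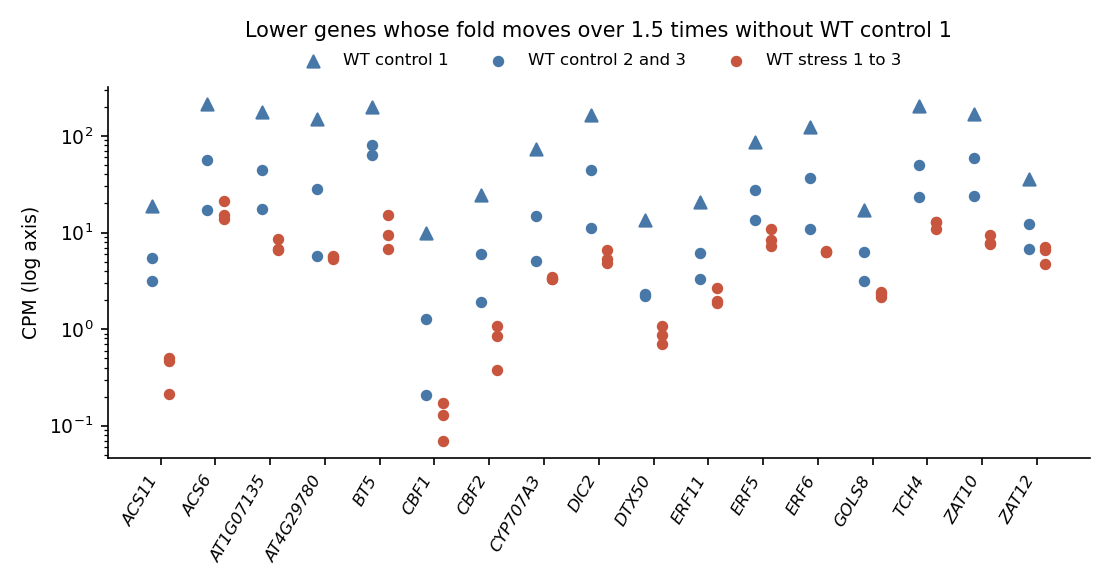
CPM on a log axis in each WT library for 17 of the 18 lower genes whose fold moved by over 1.5 times without WT control library 1 (triangles). DDF1 is left out because it was at 0 in some libraries. In ZAT10 the triangle sits at 168 CPM and the other control libraries at 23.9 and 58.7 CPM.

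Of 31 tested ethylene genes, 13 fell, 11 of them at least 2-fold, and 1 rose, with a median log2 fold change of -0.36. Without WT control library 1, 11 were called lower. Of the synthases that make the precursor, ACS4, ACS6, ACS7, ACS8 and ACS11 were called lower, and ACS2 (0.01) and ACS5 (-0.09) did not pass. ACS4 was at 2.79, 2.26 and 2.56 CPM in control and 0.284, 0.162 and 0.464 CPM in stress (-3.07 ± 0.358, adjusted p = 8.11e-05). ACS11 was at 19, 3.12 and 5.47 CPM and 0.497, 0.21 and 0.464 CPM (-4.55 ± 0.625, adjusted p = 0.000255, and -3.43, 5.48e-05 without WT control library 1). ACS7 and ACS8 had log2 fold changes of -2.0 and -1.97. ACS6, at -2.54, lost its call without WT control library 1 (-1.14, 0.15), WT stress library 1 (-2.47, 0.0749) or WT stress library 3 (-2.42, 0.0729). Of the oxidases of the last step, ACO1 was at 8.02, 6.75 and 9.99 CPM in control and 3.35, 4.24 and 3.82 CPM in stress (-1.12 ± 0.18, adjusted p = 0.000754). Control and stress libraries of ACS4, ACS11 and ACO1 did not overlap. ACO5, the list's 1 rise (0.76), lost its call without WT control library 1 (0.62, 0.0776), WT control library 2 (0.64, 0.0749) or WT stress library 2 (0.57, 0.0885). Receptors and signal components, among them ETR1 (-0.10), CTR1 (-0.25), EIN2 (-0.06) and EIN3 (-0.08), did not pass.

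Genes of soluble sugar metabolism moved in opposite directions within families. Galactinol and raffinose synthesis had 6 genes higher and 5 lower of 13. GOLS8, among the lower ones, is annotated as galacturonosyltransferase-like 10, so its place in the list is uncertain. GOLS2, a galactinol synthase known from drought, was at 8.87, 5.89 and 7.54 CPM in control and 44.6, 44.7 and 32 CPM in stress (2.44 ± 0.217, adjusted p = 1.17e-05). GOLS4 rose from 8.29, 6.2 and 6.47 CPM to 18.1, 19.1 and 17.9 CPM (1.39 ± 0.12, adjusted p = 9.57e-06). DIN10, a raffinose synthase family member named for induction in the dark, fell from 438, 366 and 304 CPM to 55.6, 61.9 and 50.2 CPM (-2.72 ± 0.174, adjusted p = 1.36e-06). Stress and control libraries of all 3 lay apart. Inositol phosphate synthases, which supply the inositol of galactinol, also parted. MIPS1 rose from 158, 150.5 and 139 CPM to 283, 298 and 279 CPM (0.94 ± 0.0855, adjusted p = 1.38e-05) and MIPS3 fell from 73.2, 75.9 and 75.3 CPM to 38.9, 41.6 and 37.2 CPM (-0.93 ± 0.0807, adjusted p = 1.02e-05).

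Starch breakdown rose in 9 of 25 genes and fell in 2, with a median log2 fold change of 0.18. BAM5, a beta-amylase found mainly in phloem, was at 0.489, 0.775 and 0.641 CPM in control and 11.7, 9.39 and 12.6 CPM in stress (4.14 ± 0.204, adjusted p = 3.09e-07). Enzymes that phosphorylate and dephosphorylate the starch granule rose as well. PWD rose from 31.7, 31.7 and 27.9 CPM to 54.7, 57.4 and 72.2 CPM (1.01 ± 0.104, adjusted p = 3.43e-05) and SEX4 from 40.4, 43.3 and 42.5 CPM to 85.8, 79.9 and 98.4 CPM (1.07 ± 0.129, adjusted p = 0.000106). Rises were also called for ISA3, a debranching enzyme (0.88), and DPE2, which handles maltose in the cytosol (0.51). The maltose exporter MEX1 rose (0.64), with 27% of its reads at several sites, and AMY2, an alpha-amylase, fell (-0.93 ± 0.0872, adjusted p = 1.83e-05). BAM9, a catalytically inactive relative of BAM5, fell from 110.1, 113 and 77.5 CPM to 39.5, 56.7 and 29.8 CPM (-1.25 ± 0.254, adjusted p = 0.00318). The main chloroplast enzymes BAM3 (0.14) and SEX1 (0.18) did not pass.

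Starch and sucrose synthesis rose in 9 of 29 genes and fell in 5, or 3 without WT control library 1 or any 1 of the 3 WT stress libraries. SUS3, a sucrose synthase, rose with little spread, from 7.7, 8.85 and 7.91 CPM to 48.3, 45.9 and 45.8 CPM (2.52 ± 0.0831, adjusted p = 3.23e-08). SPS2F, which makes sucrose phosphate, rose from 22.4, 24 and 30.9 CPM to 65.7, 60 and 62.5 CPM (1.28 ± 0.102, adjusted p = 5.25e-06). The large subunits of ADP-glucose pyrophosphorylase, which commits carbon to starch, differed. The sugar-induced forms APL3 (15.3, 21.2 and 16.3 CPM to 62.7, 53.1 and 62.6 CPM, 1.76 ± 0.146, adjusted p = 7.20e-06) and APL4 (1.09 ± 0.103, adjusted p = 1.88e-05) rose, and the main leaf form APL1 fell from 233, 236 and 187 CPM to 134, 154 and 134 CPM (-0.63 ± 0.0903, adjusted p = 0.000325). The groups of SUS3, SPS2F, APL1, APL3 and APL4 did not overlap, and 80.8% of the length of APL1 lies in another annotated gene, so its reads are uncertain.

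Sugar carriers rose in 6 of 31 genes and fell in 11. SWEET4 was at 0.442, 0.189 and 0.263 CPM in control and 5.27, 5.16 and 4.52 CPM in stress (4.05 ± 0.24, adjusted p = 8.79e-07), and SWEET13 rose from 3.96, 2.69 and 4.09 CPM to 10.7, 11.3 and 10.9 CPM (1.61 ± 0.175, adjusted p = 4.99e-05). TMT2, which loads sugar into the vacuole (15.8% of its length in another gene), rose from 67, 72.6 and 68 CPM to 110.0, 108 and 128 CPM (0.74 ± 0.0781, adjusted p = 4.18e-05). The groups of these 3 genes were apart. Among carriers of phloem loading, SWEET11 and SUC2 fell. SWEET11, which exports sucrose toward the phloem, was at 196, 228 and 178 CPM in control and 109.8, 111 and 115 CPM in stress (-0.84 ± 0.103, adjusted p = 0.000116). SUC2, which loads it, was at 184, 189 and 169.5 CPM and 112, 132 and 123 CPM (-0.56 ± 0.068, adjusted p = 0.000105). The close relative SWEET12 did not pass (0.07). SWEET16, a sugar carrier of the vacuole membrane, fell more (-1.38 ± 0.0971, adjusted p = 2.40e-06). The hexose carrier STP1 (12.2% of its length in another gene) fell from 142, 114 and 107 CPM to 54.9, 60.3 and 58.6 CPM (-1.07 ± 0.12, adjusted p = 6.58e-05).

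Trehalose metabolism, whose phosphate intermediate signals sucrose supply, rose in 4 of 20 tested genes and fell in 9, with a median log2 fold change of -0.40. TPPH, a phosphatase, was at 22.8, 15.4 and 18.9 CPM in control and 5.75, 6.68 and 6.05 CPM in stress (-1.63 ± 0.129, adjusted p = 5.25e-06). TPPA fell from 37.5, 44.3 and 35.1 CPM to 20.1, 19.1 and 18.1 CPM (-1.03 ± 0.105, adjusted p = 3.21e-05). TPPJ rose from 7.48, 8.64 and 8.91 CPM to 15, 19 and 16.1 CPM (1.00 ± 0.116, adjusted p = 7.61e-05). Phosphatases of the same family moved both ways. TPS1, the active synthase, fell from 68.9, 76.4 and 73.1 CPM to 51.7, 56.5 and 51.8 CPM (-0.45 ± 0.082, adjusted p = 0.00171), and among the synthase-like class TPS9 fell (-0.97 ± 0.106, adjusted p = 5.05e-05) and TPS5 rose (0.50 ± 0.0813, adjusted p = 0.0008).

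Nitrogen uptake and assimilation had the largest share of falling members among the pathway lists, with 19 of 34 lower and 3 higher and a median log2 fold change of -0.38. The steps from nitrate to ammonium fell together. NIA1, a nitrate reductase, was at 291, 183 and 258 CPM in control and 99, 106 and 105 CPM in stress (-1.24 ± 0.137, adjusted p = 5.76e-05). NIA2, the main nitrate reductase, was at 1188, 984 and 852 CPM and 538, 554 and 558 CPM (-0.87 ± 0.113, adjusted p = 0.000164). NIR1, the nitrite reductase, was at 305, 279 and 275 CPM and 186, 192 and 177 CPM (-0.63 ± 0.0842, adjusted p = 0.000209). Every stress library of the 3 genes lay below every control library. The nitrate transporter and sensor NRT1.1 fell from 236, 305 and 289 CPM to 148, 153 and 152 CPM (-0.87 ± 0.0919, adjusted p = 3.94e-05). NRT3.1, the partner protein of the high-affinity transporters, fell from 12.3, 17.1 and 16.9 CPM to 7.89, 6.68 and 7.02 CPM (-1.1 ± 0.129, adjusted p = 8.54e-05). Among the NRT2 transporters, NRT2.5, low in all libraries, fell (-1.96 ± 0.284, adjusted p = 0.000367), as did NRT2.7 (-0.50). NRT2.1, at 1.76 CPM or less in each library, did not pass (-0.52 ± 0.374), nor did NRT2.2, which was near 0. The nitrogen-responsive repressors LBD37 (-0.59), LBD38 (-0.64) and LBD39 (-1.03) all fell, as did the nitrate factor NLP7 (-0.34). ASN2, an asparagine synthetase, fell as well (-0.78 ± 0.0836, adjusted p = 4.54e-05). Cytosolic glutamine synthetases split. GLN1.3 rose from 74.5, 67.8 and 85.9 CPM to 143, 127 and 144 CPM (0.86 ± 0.0862, adjusted p = 2.75e-05), GLN1.2 rose (0.40), and GLN1.4 fell from 22.2, 37.8 and 26.3 CPM to 8.89, 11.1 and 11.1 CPM (-1.48 ± 0.19, adjusted p = 0.000161).

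Of 31 sulfur genes, 5 rose and 4 fell, together close to the 31.6% of all tested genes that were called. The rises numbered 3 without WT control library 1, WT stress library 1 or WT stress library 3, and the falls 2 without WT control library 2 or WT stress library 1. The largest change was in SULTR3;5, a sulfate transporter of root vascular tissue, at 54.9, 50.9 and 54.4 CPM in control and 11.4, 13.3 and 14.7 CPM in stress (-2.02 ± 0.1, adjusted p = 3.09e-07). BGLU28, a glucosidase known from sulfur starvation, rose from 5.48, 11.6 and 10.3 CPM to 17.6, 17.8 and 21 CPM (1.04 ± 0.259, adjusted p = 0.0102). GSH2, which completes glutathione synthesis, fell (-0.34 ± 0.0451, adjusted p = 0.000188), and APS4, an ATP sulfurylase, rose (0.50 ± 0.118, adjusted p = 0.00739). The reductases APR1 (-0.16), APR2 (-0.22) and APR3 (-0.08) did not pass.

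For gibberellin, which promotes elongation, 3 of 28 genes rose and 8 fell, with 6 higher and 6 lower without WT control library 1 and 5 higher in DESeq2. GASA1, a gibberellin-responsive peptide, was at 220.5, 260.2 and 195 CPM in control and 70.1, 69.6 and 47.3 CPM in stress (-1.85 ± 0.15, adjusted p = 5.97e-06). GASA4, of the same family, went the other way with little spread, from 187, 177 and 172 CPM to 553, 510.5 and 521 CPM (1.56 ± 0.0569, adjusted p = 3.23e-08). RGA, a DELLA repressor of gibberellin responses, fell from 118, 118 and 112 CPM to 90.2, 88.3 and 84.4 CPM (-0.40 ± 0.0551, adjusted p = 0.000245). The groups of the 3 genes did not overlap. The inactivating enzyme GA2OX8 (-1.47) and the synthesis enzyme GA20OX1 (-0.90) both fell.

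For brassinosteroids 2 of 28 genes rose and 11 fell. The falls numbered 5 without WT control library 1 and 7 without WT stress library 1 or WT stress library 3, and the rises 1 without WT stress library 2 or WT stress library 3. The receptor BRI1 fell from 208, 188 and 184 CPM to 127, 124 and 147 CPM (-0.54 ± 0.0873, adjusted p = 0.000737). The synthesis enzyme BR6OX1 fell from 5.29, 3.82 and 4.63 CPM to 2.07, 1.96 and 1.22 CPM (-1.38 ± 0.205, adjusted p = 0.000425), and the growth factor BEE1 from 7.94, 9.68 and 6.57 CPM to 1.9, 3.4 and 2.22 CPM (-1.69 ± 0.234, adjusted p = 0.000267). In each, all stress libraries lay below all control libraries.

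Cytokinin genes rose in 6 of 41 cases, or 3 without WT control library 2 or WT stress library 2, and fell in 9, where 14.9% of all tested genes rose and 16.7% fell. IPT3, a synthesis enzyme known to respond to nitrate, was at 14.2, 14.9 and 13.7 CPM in control and 7.11, 6.89 and 6.05 CPM in stress (-1.09 ± 0.159, adjusted p = 0.000387). The activating enzymes moved both ways, with LOG1 lower (43.2, 37.1 and 27.7 CPM to 20.5, 21.9 and 16.4 CPM, -0.88 ± 0.151, adjusted p = 0.00115) and LOG5 higher (4.31, 4.51 and 3.8 CPM to 7.84, 10.4 and 6.78 CPM, 0.99 ± 0.175, adjusted p = 0.00139). The oxidases CKX5 and CKX6, which degrade cytokinin, fell (-1.08 and -1.13), but 28.7% and 93.9% of their lengths overlap other annotated genes. Of the response regulators, ARR10 rose slightly (0.25), ARR7 fell (-0.59, lost without WT control library 2, adjusted p = 0.0538, or WT stress library 1, 0.0608), and ARR4, ARR5 and ARR6 did not pass (-0.11, -0.01 and 0.11).

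Auxin synthesis and transport had 2 of 40 genes higher and 12 lower. The falls numbered 7 without WT stress library 1. The rises numbered 1 without WT control library 1 or WT stress library 2, 4 without WT control library 3 and 0 without WT stress library 3. TAR2, an aminotransferase of auxin synthesis, fell from 13.8, 14.5 and 14.6 CPM to 8.51, 9.92 and 8.53 CPM (-0.67 ± 0.0851, adjusted p = 0.000143). PIN5, which moves auxin within the cell, fell from 7.62, 6.61 and 6.44 CPM to 3.88, 3.77 and 3.89 CPM (-0.84 ± 0.128, adjusted p = 0.0005). The importer LAX1 fell from 54.8, 56.1 and 44.7 CPM to 33, 32.9 and 37.2 CPM (-0.59 ± 0.101, adjusted p = 0.0011). Stress libraries lay below control libraries in all 3.

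In the list of cellulose synthases and secondary wall genes, 15 of 30 rose and 7 fell, with a median log2 fold change of 0.34. The falls numbered 4 without WT control library 2 and 3 without WT stress library 1 or WT stress library 2. CESA4, CESA7 and CESA8, the cellulose synthases of secondary walls, were at 34.5, 36.6 and 35.7, at 25.6, 28.6 and 26.9 and at 27.2, 31.4 and 27.4 CPM in control. They were at 59.8, 68.3 and 58.3, at 44, 51.9 and 49 and at 45.9, 48 and 47.9 CPM in stress. Their log2 fold changes were 0.80 ± 0.0954, 0.84 ± 0.0963 and 0.72 ± 0.0906 (adjusted p = 9.12e-05, 7.51e-05 and 0.000136), and no groups overlapped, with 13.2% of CESA8 in another gene. The switch factors above them rose as well. MYB46 was at 2.46, 2.55 and 2.55 CPM in control and 6.39, 5.18 and 4.83 CPM in stress (1.12 ± 0.148, adjusted p = 0.000195). MYB83 was at 1.39, 1.14 and 0.937 CPM and 2.61, 2.36 and 2.61 CPM (1.13 ± 0.172, adjusted p = 0.000521). VND6, a factor of metaxylem vessels (0.68), COBL4, a protein of cellulose assembly (0.77), and the xylan enzyme IRX9 (1.00) rose too. FLA12, an arabinogalactan protein of secondary walls, fell (-0.58), and the xylan enzyme IRX14 (0.05) did not pass. Of the primary wall synthases, CESA2 fell from 156, 151 and 170.0 CPM to 119.6, 123 and 134 CPM (-0.34 ± 0.0619, adjusted p = 0.0016), and CESA1 (-0.02) and CESA3 (-0.14) did not pass. CESA6 (-0.26) was called lower but lost the call without WT stress library 1 (0.0509) or WT stress library 2 (0.0525). The call of CESA5 (-0.25) was lost without WT control library 1 (0.0863) or 2 (0.224), WT stress library 1 (0.117), 2 (0.115) or 3 (0.0812) and with the replicate block (0.0616).

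Lignin genes, which harden the same walls, rose in 11 of 28 cases and fell in 2, with a median log2 fold change of 0.21. CAD5, which makes the alcohol precursors, was at 67.4, 66.7 and 71.1 CPM in control and 129.9, 126 and 126 CPM in stress (0.90 ± 0.059, adjusted p = 1.52e-06). CCOAOMT1, a methyltransferase, was at 338, 356 and 393 CPM and 499, 502 and 506 CPM (0.47 ± 0.0705, adjusted p = 0.000464). The laccases LAC4 (0.58 ± 0.115, adjusted p = 0.00288) and LAC17 (0.61 ± 0.138, adjusted p = 0.00587), which polymerise lignin, rose too, although 97.4% of the length of LAC17 lies in another annotated gene. Of the entry enzymes, PAL1 and PAL4 did not pass, PAL3 fell from 27.5, 32.3 and 29.7 CPM to 9.74, 10.6 and 11.4 CPM (-1.50 ± 0.091, adjusted p = 9.34e-07) and PAL2 fell by 0.38 on the log2 scale. Markers of phloem and xylem rose in 5 of 13 cases and fell in 1. All 5 that rose, CESA4, CESA7, CESA8, IRX9 and VND7, are also members of the wall list, and of the markers outside it none was called higher and SUC2 fell. Their mean log2 CPM was 5.45 to 5.49 in control and 5.68 to 5.82 in stress, and the xylem proteases XCP1 (0.23) and XCP2 (0.30) did not pass. Their part in the wall result was not tested.

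Suberin, cutin and Casparian strip genes rose in 9 of 39 cases and fell in 6. DCR, an acyltransferase of cutin, rose from 56.1, 65.8 and 50.8 CPM to 117, 114 and 98.7 CPM (0.93 ± 0.116, adjusted p = 0.000126). ASFT, which adds ferulate to suberin, rose from 35.7, 35.9 and 42.7 CPM to 63.4, 52.4 and 51.2 CPM (0.55 ± 0.0963, adjusted p = 0.00136). GPAT8, an acyltransferase of cutin, fell from 38.8, 38 and 36.5 CPM to 19.8, 21.1 and 22.1 CPM (-0.85 ± 0.102, adjusted p = 9.91e-05). No groups overlapped. Falls were also called for KCS20, an elongase of very long fatty acids (-0.54 ± 0.0617, adjusted p = 6.84e-05), and CYP86A2, a hydroxylase of cutin with 38.2% of its length in another gene (-0.75). The suberin enzymes CYP86A1 (0.19) and GPAT5 (0.21) did not pass.

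Among called genes whose groups did not overlap, the 6 largest losses in reads were all in photosynthetic genes. RCA, the Rubisco activase, was called lower too (adjusted p = 0.0282), from a mean of 7161 CPM to 5158 CPM. It is outside this ranking because its groups overlapped. LHB1B2, a light-harvesting protein of photosystem II, lost most, from 7905, 6205 and 6403 CPM to 4374, 4803 and 4728 CPM (-0.56 ± 0.141, adjusted p = 0.0109), although all of its length overlaps other annotated genes. LHCA1, of photosystem I, was at 3750.0, 3037 and 3036 CPM in control and 1953, 2038 and 1922 CPM in stress (-0.73 ± 0.117, adjusted p = 0.000731), and LHB1B1 fell from 2769, 1500.0 and 1875 CPM to 911, 953 and 775 CPM (-1.22 ± 0.246, adjusted p = 0.00314). The groups were apart, with control library 1 the highest in each. RBCS3B, a Rubisco small subunit with 11% of its reads at several sites, was at 5512, 6742 and 4342 CPM and 3737, 4317 and 4136 CPM. Its log2 fold change of -0.45 ± 0.135 (adjusted p = 0.0264) was lost without WT control library 1 (-0.43, 0.0588), WT control library 2 (-0.26, 0.108), WT stress library 1 (-0.39, 0.1) or WT stress library 3 (-0.45, 0.067). LHCA4 (-0.40) was lost without WT control library 1 (-0.29, 0.0955), WT stress library 1 (-0.38, 0.0734) or WT stress library 3 (-0.35, 0.0889). LHCB1.2 (-0.46) was lost without any 1 of WT control libraries 1 (-0.37, 0.147) and 3 (-0.44, 0.0777) and WT stress libraries 1 (-0.43, 0.126), 2 (-0.49, 0.0788) and 3 (-0.47, 0.0939).

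Chlorophyll synthesis rose in 0 of 29 genes and fell in 10, with a median log2 fold change of -0.20. The falls ranged from 4 without WT control library 2 through 5 without WT stress library 1, and 6 without WT control library 1 or WT stress library 3, to 17 without WT control library 3, and 1 gene rose without WT control library 2. CHLM, a methyltransferase of the pathway, was at 348, 344 and 266 CPM in control and 224, 237 and 212 CPM in stress (-0.51 ± 0.0956, adjusted p = 0.00198). HEMB1, an early enzyme, was at 171, 188 and 159.7 CPM and 137, 140.1 and 144 CPM (-0.30 ± 0.0725, adjusted p = 0.0087). PORA, a protochlorophyllide oxidoreductase of dark-grown seedlings, fell from 3.36, 1.79 and 2.23 CPM to 0.412, 0.955 and 0.619 CPM (-1.90 ± 0.429, adjusted p = 0.00602). The groups did not overlap, although in CHLM control library 3 stood well below the other control libraries. Shoot markers fell in 8 of 15 genes, with 3 to 10 lower when 1 library was left out, of which 3 without WT control library 1 or WT stress library 3, 4 without WT stress library 1 and 5 without WT control library 2. Their mean log2 CPM was 11.30 to 11.63 in control and 11.06 to 11.21 in stress. Root markers rose in 3 of 15 genes and fell in 2. The rises numbered 1 without WT control library 2 or WT stress library 1 and 5 without WT control library 3, and the falls 0 or 1 without any 1 library. Their mean log2 CPM was 4.24 to 4.61 and 4.53 to 4.57. The part of shoot and root in these results was not tested.

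Against those losses, a few abundant genes gained. Among called genes whose groups did not overlap, the 6 largest gains were in BGLU18, CAT3, LOX2, AT4G23670, P5CS1 and VSP2. LOX2, a chloroplast lipoxygenase that starts jasmonate synthesis, was at 82, 172 and 143 CPM in control and 1026, 764 and 1359 CPM in stress (2.99 ± 0.35, adjusted p = 8.33e-05). VSP2, a jasmonate-responsive storage protein, was at 68.4, 94.6 and 86 CPM and 532, 445 and 656 CPM (2.71 ± 0.216, adjusted p = 5.38e-06). AT4G23670, annotated as a polyketide cyclase and lipid transport protein, was at 1395, 1405 and 1441 CPM and 2026, 2091 and 2196 CPM (0.57 ± 0.0768, adjusted p = 0.000213). Stress libraries lay above control libraries in all 3. CAT3, a catalase, was at 1770.0, 1811 and 1913 CPM in control and 2735, 2307 and 3338 CPM in stress, again with no overlap. Its log2 fold change of 0.61 ± 0.21 (adjusted p = 0.0451) was lost without WT control library 1 (0.60, 0.0988), WT control library 2 (0.61, 0.0894), WT control library 3 (0.64, 0.0669), WT stress library 1 (0.62, 0.0919) or WT stress library 3 (0.47, 0.155).

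By fold change in the same set of genes, averaging at least 5 CPM in both groups, MBP1 led, a myrosinase-binding protein, at 8.1, 14.5 and 9.7 CPM in control and 317, 128 and 257 CPM in stress (4.44 ± 0.434, adjusted p = 2.34e-05). AT3G28220, a TRAF-like protein, was at 15.5, 14.9 and 9.88 CPM and 252, 111 and 211 CPM (3.83 ± 0.387, adjusted p = 2.93e-05). LTP3, a lipid transfer protein, was at 7.94, 7.13 and 7.62 CPM and 77.5, 88.8 and 95.2 CPM (3.53 ± 0.19, adjusted p = 5.09e-07). In MBP1 and AT3G28220 stress library 2 was far below the other stress libraries, as it also was in BGLU18, and in LTP3 the stress libraries lay close together. AT1G80130, a tetratricopeptide repeat protein, rose from 8.11, 14.3 and 12.3 CPM to 95.5, 133 and 135 CPM (3.39 ± 0.238, adjusted p = 2.40e-06). AT14A is uncertain, since all its reads map to several sites, and its log2 fold change of 3.43 ± 0.518 became 2.64 without WT stress library 1. On the lower side, AT3G15356 and AT3G16530, both annotated as legume lectin proteins on chromosome 3, fell with little spread. The first was at 83.9, 70.3 and 73.3 CPM in control and 7.21, 6.18 and 6.5 CPM in stress (-3.51 ± 0.141, adjusted p = 6.69e-08). The second was at 106, 149 and 119 CPM and 11.2, 10.8 and 10.2 CPM (-3.54 ± 0.143, adjusted p = 6.69e-08), with 65.6% of its length in another annotated gene.

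A few genes were near off in 1 treatment, at 0.5 CPM or less in each library, and at 5 CPM or more in each library of the other. There were 2 off in control, AT2G16367 and AT3G27250, and 2 off in stress, SWEET10 and AT3G23550. AT3G27250, an uncharacterised protein, was at 0.0947, 0.0861 and 0.329 CPM in control and 14.1, 10.8 and 13.7 CPM in stress, a log2 fold change of 6.22 ± 0.335 (adjusted p = 5.09e-07) that became 7.12 without WT control library 3. AT2G16367 was at 0, 0.103 and 0.115 CPM and 46.9, 22.8 and 22.8 CPM (8.72 ± 0.591, adjusted p = 1.89e-06, and 8.13 without WT control library 1). SWEET10, a sugar exporter, was at 12.3, 22.1 and 8.76 CPM in control and 0.284, 0.259 and 0.344 CPM in stress (-5.60 ± 0.385, adjusted p = 2.09e-06). AT3G23550, a MATE efflux protein, was at 5.26, 9.07 and 8.28 CPM and 0.199, 0.486 and 0.344 CPM (-4.47 ± 0.674, adjusted p = 0.00049). Fitted changes of genes this close to 0 depend on the prior count of the fit.

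Clock genes, sampled in continuous light, rose in 4 of 36 cases and fell in 12. CDF5, a repressor of flowering, fell most (-1.88 ± 0.113, adjusted p = 9.34e-07), with 56.7% of its length in another gene. LNK2, a coactivator, was at 530.5, 465 and 431 CPM in control and 172, 215 and 188 CPM in stress (-1.31 ± 0.0971, adjusted p = 3.12e-06), and LNK4 at 53.9, 47.7 and 51.4 CPM and 21.6, 24.1 and 19.9 CPM (-1.22 ± 0.0907, adjusted p = 3.13e-06). CCA1, a central morning repressor, was at 136, 129 and 119 CPM and 88.3, 108 and 84.7 CPM (-0.45 ± 0.103, adjusted p = 0.00632). The evening gene ELF4 rose from 33.7, 31.2 and 37.2 CPM to 50.5, 47 and 47.8 CPM (0.51 ± 0.125, adjusted p = 0.00947). None of these groups overlapped. PRR3, which stabilises TOC1 protein, rose too (0.55), and TOC1 (0.16), GI (0.10) and LUX (-0.15) did not pass.

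Antioxidant enzymes and NADPH oxidases rose in 13 of 41 cases and fell in 6. Members of the ascorbate cycle moved both ways. DHAR1, which regenerates ascorbate in the cytosol, was at 289, 312 and 320.1 CPM in control and 567, 458 and 581 CPM in stress (0.80 ± 0.107, adjusted p = 0.00021), and MDAR1 at 189, 215 and 203 CPM and 275, 270.3 and 277 CPM (0.44 ± 0.0602, adjusted p = 0.000246). The peroxidase GPX6 (0.56) and the glutathione reductase GR1 (0.35) rose less. The peroxidase TAPX of thylakoids fell (-0.37), and the fall of MDHAR (-0.79) was lost without WT control library 3 (-0.50, 0.0765), WT stress library 1 (-0.81, 0.0583) or WT stress library 3 (-0.62, 0.0831). The NADPH oxidases parted, with RBOHE higher (0.67 ± 0.118, adjusted p = 0.00133) and RBOHG lower (-1.23 ± 0.19, adjusted p = 0.000562). Of the superoxide dismutases, MSD1 (0.28) and FSD3 (0.36) rose slightly and CSD1 (0.12) and CSD2 (0.03) did not pass, nor did cytosolic APX1 (0.11).

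Ion transporters rose in 9 of 45 cases, or 5 without WT stress library 3, and fell in 14, or 7 without WT stress library 1. NHX2, a vacuolar potassium and sodium antiporter, was at 13.9, 14.1 and 15.7 CPM in control and 33.8, 42.6 and 40.2 CPM in stress (1.41 ± 0.0899, adjusted p = 1.33e-06). HKT1, a sodium transporter of root xylem, was at 4.91, 5.11 and 5.82 CPM and 12.2, 11.6 and 16.4 CPM (1.34 ± 0.153, adjusted p = 7.13e-05). KAT1, a potassium channel of guard cells, fell from 19.1, 18.9 and 18.3 CPM to 6.53, 7.75 and 8.93 CPM (-1.28 ± 0.138, adjusted p = 4.97e-05). Groups were apart in each. Guard cell markers, which share KAT1 and others with this list, fell in 7 of 14 and rose in 2, or 1 without WT control library 1, WT control library 3, WT stress library 2 or WT stress library 3. Their mean log2 CPM was 3.11 to 3.41 in control and 2.76 to 2.94 in stress, and their part in the fall of KAT1 was not tested. SLAH1, an anion channel of root vascular tissue, fell from 6.39, 5.36 and 5.5 CPM to 0.98, 1.62 and 0.808 CPM (-2.34 ± 0.355, adjusted p = 0.000509), and the antiporter NHX1 did not pass (0.04).

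Folding proteins of the endoplasmic reticulum rose in 12 of 26 cases and fell in none, mostly by small amounts. PDIL1-2, a disulfide isomerase, was at 54.2, 57.3 and 62.7 CPM in control and 75.8, 77.5 and 87.9 CPM in stress (0.47 ± 0.0724, adjusted p = 0.000564), and the calnexin CNX2 at 45.7, 51.4 and 51.3 CPM and 58.5, 58.4 and 62.9 CPM (0.28 ± 0.0557, adjusted p = 0.00303). BIP3, the chaperone most responsive to unfolded proteins, stood at 0.126, 0.362 and 0.263 CPM and 1.77, 0.858 and 2.44 CPM (2.76 ± 0.581, adjusted p = 0.00406), low in every library but without overlap. Core histones and linker histones rose in 10 of 31 cases, or 16 with libraries numbered 1 and 2 only, and fell in none. HIS1-3, a linker histone induced by drought, was at 24.3, 18.6 and 20.4 CPM in control and 124, 118 and 124 CPM in stress (2.53 ± 0.165, adjusted p = 1.49e-06). The others, all core histones, rose by 0.21 to 0.44 on the log2 scale. The linker histone H1 had a log2 fold change of 0.15 and did not pass. Autophagy genes rose in 5 of 34 cases and fell in 3, with ATG8H higher (0.51 ± 0.0882, adjusted p = 0.00124) and ATG8E lower (-0.76 ± 0.115, adjusted p = 0.000506) within the family of ATG8 proteins that coat the autophagosome.

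Among markers of other cell types, root hair genes rose in 6 of 16 cases with a median log2 fold change of 0.82. Their mean log2 CPM was 1.22, 1.84 and 2.78 in the control libraries and 3.18, 2.87 and 2.7 in the stress libraries, so control library 3 lay among the stress libraries. The rises numbered 14 without WT control library 3, 3 without WT control library 1 or WT stress library 2, and 2 without WT control library 2 or WT stress library 1. RHS10, a receptor-like kinase of root hairs, was at 1.83, 2.63 and 4.93 CPM in control and 8.96, 6.43 and 6.24 CPM in stress (1.2 ± 0.286, adjusted p = 0.00799). Trichome markers rose in 4 of 10 genes and fell in 1, with 2 lower without WT control library 3 and 0 lower without WT control library 1, WT control library 2 or WT stress library 1. TTG2, a factor of hair cells and seed coat, was at 3.71, 4.05 and 4.14 CPM in control and 8.31, 6.75 and 7.53 CPM in stress (0.93 ± 0.148, adjusted p = 0.000721). Meristem and division markers rose in 5 of 12 genes, or 3 without WT stress library 1, and fell in 1. CLV1, a receptor of the shoot meristem, fell from 113, 112 and 99.7 CPM to 61.8, 67.2 and 68.9 CPM (-0.72 ± 0.0725, adjusted p = 2.95e-05), and CYCB1;1, a mitotic cyclin, rose (0.50).

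Ribosomal protein genes, abundant in every library at 42068 to 45829 CPM in sum, changed rarely. Of 324 nuclear genes so annotated, 11 rose and 17 fell, both below the shares of all genes, with a median log2 fold change of 0.01. These counts moved with the library left out. The rises numbered 7 without WT control library 2 or WT stress library 1 and 23 without WT control library 3. The falls numbered 9 without WT control library 1 or WT stress library 1, 6 without WT control library 2, 28 without WT control library 3 and 8 without WT stress library 3. RPL4 and RPS9, ribosomal proteins of the chloroplast, were among the falls (-0.35 and -0.31). Chloroplast-encoded genes rose in 1 and fell in 5 of 105 cases. The falls numbered 1 without WT control library 1 or WT stress library 1, 2 without WT control library 2, 3 without WT stress library 2, 10 without WT control library 3 and 8 without WT stress library 3, and the rise was lost without WT control library 1, WT control library 3, WT stress library 1 or WT stress library 3. Mitochondria-encoded genes rose in 6 and fell in 1 of 59 cases. The rises numbered 2 without WT control library 2, WT stress library 1 or WT stress library 3 and 3 without WT stress library 2, and 1 with genes of many multi-site reads left out. The falls numbered 2 without WT control library 3, WT stress library 1 or WT stress library 2 and 0 without WT stress library 3.

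The authors' deposited table of the same comparison lists an adjusted p for 23692 genes, of which 6352 lie below 0.05, 2981 higher and 3371 lower in stress by the sign of P5CS1 there. The calls shared with edgeR numbered 6010, which is 94.6% of those in the authors' deposited table and 83% of those of edgeR, and all 6010 had the same sign. In the authors' deposited table the log2 fold changes were 3.58 for COR15A, 2.04 for RD29A, 2.01 for RD29B, 0.38 for LTI30, 3.18 for P5CS1 and -1.49 for PRODH1. Of these, RD29B differed most from the edgeR value of 3.1, and it was also the gene of the 6 with the widest spread between stress libraries. All 6 values lay nearer to 0 in the authors' deposited table than in edgeR. Log2 fold changes there ran from -4.50 to 5.24, while edgeR gave 8.72 for AT2G16367 and -5.60 for SWEET10. The 2 sets of values may therefore not be on the same scale, and the reason was not tested.

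The stress response differed between WT and 35S:HIN1 in 36 genes (0.157% of those tested), 35 with a higher and 1 with a lower log2 fold change in 35S:HIN1. DESeq2 called 205 and leaving out 1 WT library gave 13 to 238. BAM5 rose less in 35S:HIN1, where it was at 1.3, 1.13 and 1.54 CPM in control and 4.75, 5.86 and 6.36 CPM in stress. The difference between the log2 fold changes was -2.05 ± 0.268 (adjusted p = 0.0119). Of the list members, SULTR3;5 and PILS7, an auxin carrier of the endoplasmic reticulum, differed as well, and of the genes of largest fold change so did AT3G16530.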

How the data were processed

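PolyA RNA of whole seedlings was sequenced from 12 stranded libraries, 3 in each of 4 groups. The submitters' processing notes name CASAVA, bcl2fastq 1.8.4, Trimmomatic 0.35, Bowtie2, DESeq2 and the build TAIR10, and the use of strand in counting is not given in the sources used here. Expected counts per gene, as deposited (58.00 M to 68.56 M in the WT libraries), were rounded to whole numbers. The deposited fraction of multi-site reads marked uncertain genes, and the deposited RPKM served per-length levels only. The authors deposited log2 fold changes and p-values for the same comparison, used only as named.

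Genes that passed filterByExpr (22924 of 33602) were fitted with edgeR 4.0.16 in R 4.3.3 over all 12 libraries, with TMM scaling, 1 coefficient per group and no covariate, by glmQLFit and glmQLFTest, two-sided, with Benjamini-Hochberg adjustment and a call below 0.05. CPM, approximate standard errors (the log2 fold change over the square root of F) and list counts came from this fit. The p-values measure the spread between 3 separate experiments per group. On simulated counts, with far fewer genes changed than were called here, 45 of 50 genes changed 2-fold were recovered. Alternatives were DESeq2 1.42.0, its size factors in edgeR, no filter, the replicate number as a block, each WT library left out, libraries numbered 1 and 2 only, the 6 WT libraries alone, and multi-site genes left out.

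Among called genes whose groups did not overlap, those named by rule were the 6 largest gains and losses in CPM. In that set, the 6 highest and lowest log2 fold changes at a mean of at least 5 CPM in both groups were named too. Genes at most 0.5 CPM in 1 group and at least 5 CPM in the other were also named. So were up to 3 called members per list by adjusted p, and 6 known response genes. Not all of them are described. The members, lists and rules were chosen with earlier results of these data known. Gene names came from RefSeq TAIR10.1, which matched 32835 of 33602 genes, and promoter windows were the 250 bases before each gene start in its genome. The other 2 deposited comparison tables were not used here.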

Additional observations from a re-analysis of the deposited data

Results flagged for a closer look

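The stress response of 4 named genes differed between WT and 35S:HIN1 by a test of the difference itself, edgeR's interaction contrast with p adjusted by Benjamini-Hochberg across the genes tested. AT3G16530, a legume lectin protein, fell less in 35S:HIN1, from 199, 178 and 156 CPM to 33.9, 40.7 and 43.4 CPM. Its log2 fold change was 1.36 ± 0.185 higher than in WT (adjusted p = 0.0144), with 65.6% of its length in another annotated gene. BAM5, a beta-amylase, rose less, with a difference of -2.05 ± 0.268 (adjusted p = 0.0119). SULTR3;5, a sulfate transporter, fell less, from 59.4, 50.4 and 50.5 CPM to 23.6, 25.9 and 22 CPM, a difference of 0.86 ± 0.136 (adjusted p = 0.0374). PILS7 was at 2.07, 2.42 and 2.05 CPM in 35S:HIN1 control and 5.4, 4.54 and 6.49 CPM in stress. In WT it fell from 1.89, 2.12 and 3.12 CPM to 0.68, 1.07 and 0.83 CPM, a difference of 2.8 ± 0.317 (adjusted p = 0.00485). Whether these 4 differences passed under the alternative settings is not given here.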

How the results depend on the processing

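The 141 named genes counted here were all called in the main fit, many of them chosen by low adjusted p, so a call could only be lost. Named genes that did not pass are not among them. Of the 141, 126 were called in every setting that gave a value. Of 1826 values under alternatives, 63 lost the call and 0 changed direction. Calls numbered 7225 with DESeq2 size factors, 7889 in DESeq2, 6884 with no filter, 7165 with multi-site genes left out, 5457 with the 6 WT libraries alone, 6931 with libraries numbered 1 and 2 only, and 5136 to 7543 when 1 WT library was left out, which kept 69.6% to 86.8% of the calls. Same-numbered WT control and WT stress libraries did not deviate together (correlations of -0.003, 0.022 and -0.038), and the replicate block gave 7330 calls. Same-numbered libraries of 35S:HIN1 control and stress reached 0.160, 0.002 and 0.127. Those of the control groups of both genotypes reached -0.110, -0.067 and 0.038, and those of their stress groups 0.008, 0.114 and 0.195. Not every pair was over 0.1, and the main fit held no block. The chloroplast, mitochondrial and multi-site shares of reads were all highest in library 3 of all 4 groups. Whether libraries of the same number shared a factor was not tested. Genes whose response differed between WT and 35S:HIN1 numbered 36, against 205 in DESeq2, 8 with libraries numbered 1 and 2 only, and 13 to 238 when 1 WT library was left out. The cause was not tested. Of 80 counts of list members by direction, 0 to 3 moved by over 1.5 times under another scaling, tool, filter, block or with multi-site genes left out, 13 to 21 when 1 WT library was left out, 14 with libraries numbered 1 and 2 only and 16 with the 6 WT libraries alone. The common coefficient of variation was 13.04% with 3 libraries per group, and 25 of 50 simulated 1.5-fold changes were recovered. The simulation changed far fewer genes than were called here, which makes the adjusted p stricter, and it held no library that stood apart. Its recovery is therefore not the rate in these data, and the share of changes of that size that was missed is not known. Counting error is small at these depths except for genes near 0.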
